A study of Aliger gigas with 7 samples.

Results

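The proteasome titles are the rows of an ovary expression table of the queen conch, a large marine snail, whose gene title contains the word proteasome. A search for proteasom, ignoring case, found 35 of 4328 titles. By name, 9 are alpha subunits and 11 are beta subunits of the core particle, 5 are ATPases and 8 are non-ATPase subunits of the regulatory particle, and 2 are activator subunits. The titles name 31 distinct items, because 4 subunits have 2 titles each. The titles were matched by name alone, but the family was chosen with earlier results of these data known.

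Each of 7 single-colour arrays held ovary RNA of 1 wild, mature animal from the Florida Keys. The 4 offshore animals (OF1 to OF4) came from Pelican Shoal, where reproduction is normal, were labelled normal females, and are the reference. The 3 nearshore animals came from Tingler Island, where reproduction is impaired. Of these, NF1 and NF3 carry the label of a normal female and NM3 that of an apparent imposex female, that is, a female with male sexual characters. No treatment was given, all animals were collected on the same day as mature adults, and no age in years is used here. Each site stands for 1 place, so site and any other difference between the 2 collections cannot be told apart. NM3 is the only imposex animal, so imposex was not compared.

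The proteasome is the protease that breaks down proteins tagged with ubiquitin. Its core particle is a barrel of alpha rings, which form the gate, around beta rings, some of whose subunits carry the cutting sites. The regulatory particle caps the barrel. Its non-ATPase subunits receive ubiquitin-tagged proteins and cut the tag off, and its ring of ATPases unfolds the protein and threads it into the core. In oocytes the proteasome destroys cyclin B and securin, which lets meiosis go forward. A title is a name that the authors attached to conch sequence, and how it was assigned is not known here. Roles below are those of the vertebrate or yeast protein of that name.

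Values are log2 signals, and the mean over the titles measured on all arrays ran from 5.83 to 5.84 across the 7 arrays. NM3's array stands apart: it lacks 45 values of the table, against 0 to 3 on the others, and had the lowest array weight in limma, 0.55 against 0.82 to 2.06. No value of the table carries a detection call. The mean of 27 proteasome titles lay above the median title mean of 5.17 and that of 8 lay below it, and how far those 8 stood above background is unknown. The labelled tissue was checked on 14 titles matching ovary and oocyte names. They are not a pure ovary list, since cell division cycle and zona pellucida-like titles also matched. Among the 14, Vitellogenin 2, the yolk precursor, was at 17.07 ± 0.21 (SD, n = 4) offshore. It was at 12.69 in NF1, 17.03 in NF3 and 16.35 in NM3, with the table running from 0.27 to 17.53. Nearshore minus offshore, Piwi-like 1 differed by -1.92 (SE 0.50, limma adjusted p = 0.0580). Bol, Boule-like differed by 1.34 (SE 0.39, limma adjusted p = 0.0804). In limma, 400 of 4328 titles (9.24%) differed between the sites at an adjusted p under 0.05, with 169 (3.9%) higher and 231 (5.34%) lower nearshore.

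Of the 35 proteasome titles, 1 rose and 1 fell nearshore. Proteasome 26S Subunit, Non-ATPase, 11, a lid subunit of the regulatory particle, rose, and Proteasome Subunit, Beta Type, 3, a structural subunit of the core, fell. These 2 titles are 5.71% of the members, against 9.24% of all titles. The order of these shares turned after cyclic loess (11.4% against 9.22%), with the robust prior (14.3% against 10.4%) and without NM3 (8.57% against 6.98%), so no lower share of calls is read from it. The median log2 fold change, nearshore minus offshore, was 0.43 over the 35 titles and -0.01 over all titles, and 25 of the 35 (71.4%) lay above 0, against 49.4% of all titles. The titles for the regulatory particle lay mostly above 0, with 12 of 13 positive, whereas those for the core went both ways, with 12 of 20 positive. In bulk RNA of a whole gonad, fewer cells of a type and less RNA per cell cannot be told apart. At an unadjusted p under 0.05 there were 10 proteasome titles (28.6%), against 26.1% of all titles. In simulated tables with 4 arrays against 3, the test recovered 7.46% of log2 changes of 1 and 67.2% of changes of 2. Those tables held 200 changed titles of 4275, with independent noise, whereas 400 of 4328 passed here. The adjusted p depends on how many titles change, so these shares do not give the recovery in this table. The largest proteasome change was 1.38.

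**Figure D1:**
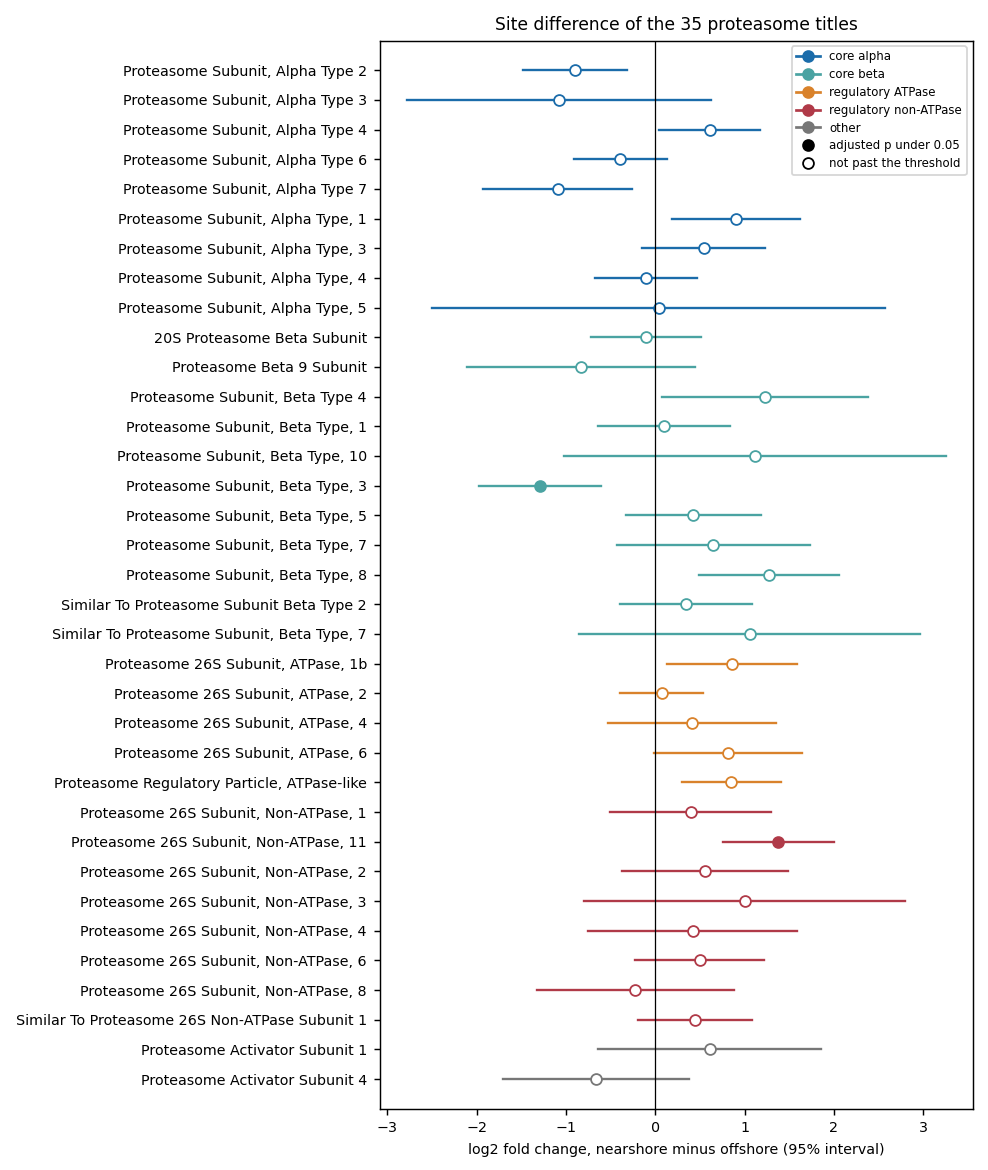
Each point is the log2 fold change of 1 proteasome title, nearshore minus offshore, with its 95% interval from limma as a line. Colours mark the subunit class, and filled points are the 2 titles past an adjusted p of 0.05, Non-ATPase 11 at 1.38 and Beta Type, 3 at -1.29. The 5 ATPase titles lie between 0.07 and 0.86, while the 9 alpha titles spread from -1.09 to 0.90.

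Proteasome 26S Subunit, Non-ATPase, 11, which in yeast helps to clamp the regulatory particle to the core, had log2 signals of 12.21, 12.33, 11.86 and 12.01 in OF1, OF2, OF3 and OF4. Nearshore it was at 13.50 in NF1, 13.84 in NF3 and 13.11 in NM3. All 3 nearshore animals lay above all 4 offshore animals, and NM3 was the lowest of the 3. The mean was 12.10 ± 0.21 (SD, n = 4) offshore and 13.48 ± 0.36 (n = 3) at the nearshore site. The log2 fold change was 1.38 (SE 0.27, limma adjusted p = 0.0272) or 2.60-fold. The change kept a size of 1.20 to 1.57 whichever animal was left out. The adjusted p stayed under the threshold only without NM3, at 0.0315, and lay between 0.0521 and 0.0790 in the other 6 of these fits.

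The other lid and base subunits had smaller or more scattered differences, and none passed. Similar To Proteasome 26S Non-ATPase Subunit 1, named after the large scaffold of the base, was at 14.67 ± 0.20 offshore and 15.11 ± 0.41 nearshore, a difference of 0.44 (SE 0.27). Proteasome 26S Subunit, Non-ATPase, 6, a lid subunit, differed by 0.50 (SE 0.31), with NF3 at 12.26 and the 6 other animals between 10.84 and 11.43. Non-ATPase 2, the other scaffold of the base, differed by 0.56 (SE 0.40). In Non-ATPase 3, a lid subunit, the nearshore animals were split. NF1 was at 5.80, near the lowest offshore value of 5.75, while NM3 at 8.35 and NF3 at 8.84 were above the highest offshore value of 7.36. Non-ATPase 4, a ubiquitin receptor of the particle, was at 6.73 in NM3, below all offshore animals (6.88 to 7.83), at 7.70 in NF1 and at 8.84 in NF3. Its difference of 0.42 (SE 0.50) turned to -0.12 without NF3. Non-ATPase 8, a lid subunit at a mean of 4.52 offshore, was the 1 regulatory title below 0, at -0.22 (SE 0.47), and turned to 0.08 without NF1. Over the 8 non-ATPase titles NF3 was the highest of the 7 animals in 6.

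The 5 ATPase titles all had positive differences, with a median of 0.81 that was 0.51 without NF3, and none passed. Proteasome Regulatory Particle, ATPase-like, named only by class, was at 13.30, 13.36, 13.01 and 13.49 in OF1 to OF4, and at 14.20 in NF1, 14.32 in NF3 and 13.90 in NM3. The sites did not overlap, and the difference was 0.85 (SE 0.24, limma adjusted p = 0.0689). It passed after cyclic loess normalization (adjusted p = 0.0492) and with a mean-dependent robust prior (0.0296). Proteasome 26S Subunit, ATPase, 1b was at 11.44, 10.64, 11.35 and 11.75 in OF1 to OF4 and at 12.31, 12.22 and 11.95 in NF1, NF3 and NM3. Again all nearshore animals were above the offshore ones, by a mean of 0.86 (SE 0.31, adjusted p = 0.131). ATPase 6 and ATPase 4 overlapped between the sites. ATPase 6 ran from 7.79 in OF2 to 8.74 in OF4 offshore and from 8.62 to 9.73 nearshore, a difference of 0.81 (SE 0.36). ATPase 4 ran from 8.98 to 10.08 offshore and from 9.27 to 10.63 nearshore, a difference of 0.41 (SE 0.40). In both titles NF3 was the highest and NF1 the lowest nearshore animal, and OF4 the highest and OF2 the lowest offshore animal. ATPase 2 stayed between 1.10 and 1.29 on all arrays, near the lowest values of the table, and its difference was 0.07 (SE 0.20).

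**Figure D2:**
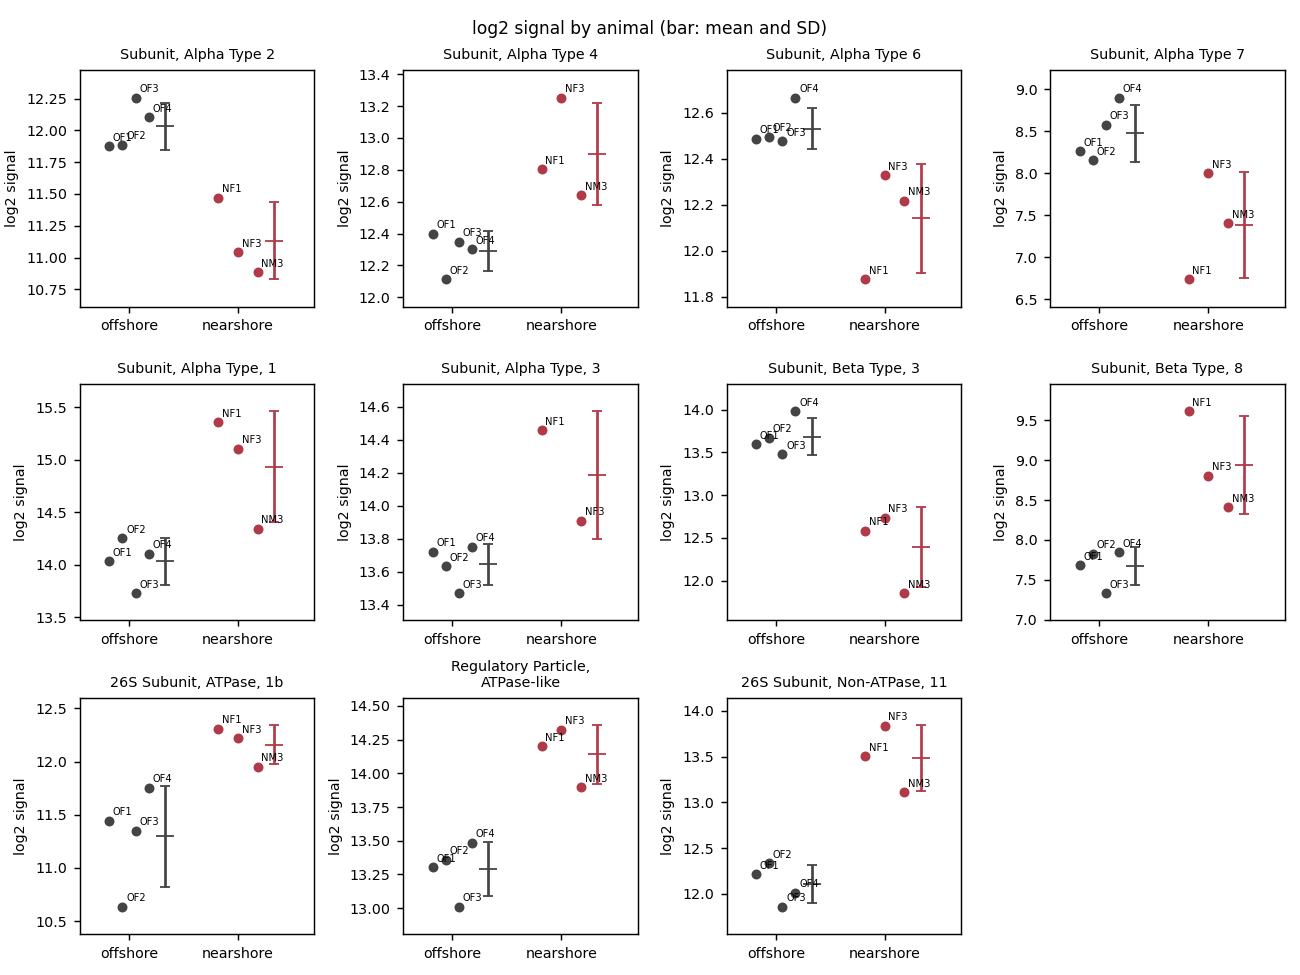
Points are the log2 signals of single animals for the 11 proteasome titles whose sites did not overlap, and bars are the group mean and SD (n = 4 offshore and 3 nearshore, but 2 nearshore for Alpha Type, 3, which has no value in NM3). The vertical scales differ between panels and do not start at 0. 7 titles, Non-ATPase 11 among them, were higher in all nearshore animals with a value, and 4, Beta Type, 3 among them, were lower in all of them.

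Among the beta subunits, Proteasome Subunit, Beta Type, 3, which carries no cutting site, was at 13.60, 13.67, 13.48 and 13.98 in OF1 to OF4. It was at 12.58 in NF1, 12.73 in NF3 and 11.85 in NM3. All nearshore animals were below all offshore ones, and NM3 was the lowest. The title fell from 13.68 ± 0.22 to 12.39 ± 0.47, a log2 fold change of -1.29 (SE 0.29, limma adjusted p = 0.0395), or 2.45-fold lower. With any 1 animal left out it ran from -1.47 to -1.03 and did not pass (adjusted p from 0.0568 to 0.108).

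Proteasome Subunit, Beta Type, 8 moved the other way. In vertebrates this name belongs to the catalytic subunit that replaces Beta Type 5 in the immunoproteasome, the form made by immune cells and after interferon. Its signals were 7.68, 7.83, 7.33 and 7.84 in OF1 to OF4 and 9.62, 8.81 and 8.41 in NF1, NF3 and NM3. The sites did not overlap and the means differed by 1.27 (SE 0.33, adjusted p = 0.0585). It passed in 6 of the 14 alternatives, with adjusted p from 0.0430 to 0.144 over the 14 and a difference of 0.94 without NF1. The names Beta 9 and Beta 10 also belong to the vertebrate immunoproteasome, and both titles overlapped between the sites. Proteasome Beta 9 Subunit was at 4.21 to 5.37 offshore, at 3.26 in NF1, 3.65 in NM3 and 5.38 in NF3, a difference of -0.83 (SE 0.55). Beta Type, 10 was scattered, from 0.68 in OF2 to 4.09 in OF3 offshore and from 2.73 to 4.43 nearshore, a difference of 1.12 (SE 0.91).

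The constitutive catalytic subunits Beta Type, 5 and Beta Type, 7 overlapped between the sites. Beta Type, 5, which cuts after large hydrophobic residues, was at 6.51 to 6.73 offshore and at 6.41 in NM3, 7.07 in NF1 and 7.68 in NF3, a difference of 0.43 (SE 0.32). Beta Type, 7, which cuts after basic residues, was at 6.97 in OF2 and 7.99 to 8.45 in the other offshore animals, against 7.86 in NM3, 8.77 in NF3 and 9.13 in NF1, a difference of 0.65 (SE 0.46). The structural subunit Beta Type 4 was at 7.20 and 7.32 in OF2 and OF1, at 8.53 and 8.85 in OF3 and OF4, and from 8.74 to 9.73 nearshore. Its difference of 1.23 (SE 0.49, adjusted p = 0.167) was smaller than its offshore range of 1.65. Similar To Proteasome Subunit Beta Type 2 and Beta Type, 1, also structural, differed by 0.35 (SE 0.32) and 0.09 (SE 0.32), and Beta Type, 1 turned to -0.18 without NF1. The unnumbered 20S Proteasome Beta Subunit stayed between 0.85 and 1.60, near the bottom of the scale.

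The titles for the alpha ring split. Alpha Type 2, Alpha Type 6 and Alpha Type 7 were lower in all nearshore animals, and Alpha Type, 1, the title Alpha Type 4 and the title Alpha Type, 3 were higher in all nearshore animals that had a value. None of the 6 passed. Alpha Type 2 was at 11.88, 11.89, 12.26 and 12.10 in OF1 to OF4 and at 11.47, 11.04 and 10.88 in NF1, NF3 and NM3. The difference was -0.90 (SE 0.25, limma adjusted p = 0.0675), with NM3 lowest. Alpha Type 7 was at 8.15 to 8.90 offshore and at 6.74 in NF1, 7.40 in NM3 and 8.00 in NF3, a difference of -1.09 (SE 0.36, adjusted p = 0.107). Alpha Type 6 varied little, from 12.48 to 12.67 offshore and from 11.88 to 12.33 nearshore, and differed by -0.39 (SE 0.22).

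On the higher side, Alpha Type, 1 was at 13.73 to 14.25 offshore and at 15.35 in NF1, 15.10 in NF3 and 14.34 in NM3, a difference of 0.90 (SE 0.31, adjusted p = 0.114). NM3 was only just above the highest offshore animal, and without NM3 the difference was 1.20 and passed (adjusted p = 0.0488). Alpha Type 4 was at 12.11 to 12.40 offshore and 12.64 to 13.25 nearshore, a difference of 0.61 (SE 0.24, adjusted p = 0.163). Alpha Type, 5 had a difference of 0.04 (SE 1.09), the widest error of the 35 titles. It was at 4.31 and 4.65 in OF1 and OF2 but at 6.53 and 7.80 in OF3 and OF4, and at 4.06, 5.86 and 7.66 in NF1, NM3 and NF3, so animals of both sites lay at both ends.

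Both activator titles overlapped between the sites. Proteasome Activator Subunit 1 belongs to a cap that opens the core without ATP, and Proteasome Activator Subunit 4 is a large nuclear cap known from the mouse testis. Activator Subunit 1 was at 4.28 to 5.71 offshore and at 4.36 in NF3, 5.74 in NM3 and 6.18 in NF1, a difference of 0.61 (SE 0.54). Activator Subunit 4 differed by -0.66 (SE 0.45), with NF1 at 3.78, NM3 at 4.17 and NF3 at 5.40 against 4.80 to 5.78 offshore. NF3 thus stood on the opposite side of NF1 and NM3 in both titles.

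Counting titles without overlap, 7 of 35 lay wholly above the offshore range nearshore and 4 wholly below. Over all titles 10.9% lay wholly above and 13.5% wholly below. The 7 were 3 alpha titles, 1 beta title, 2 ATPases and 1 non-ATPase, and the 4 were 3 alpha titles and 1 beta title, so no regulatory title lay wholly below. For 24 of the 35 titles (68.6%) the range among the offshore animals alone was larger than the difference between the site means, against 71.2% of all titles. The median SD over the 35 titles was 0.34 offshore and 0.53 nearshore, against 0.44 and 0.54 over all titles.

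**Figure D3:**
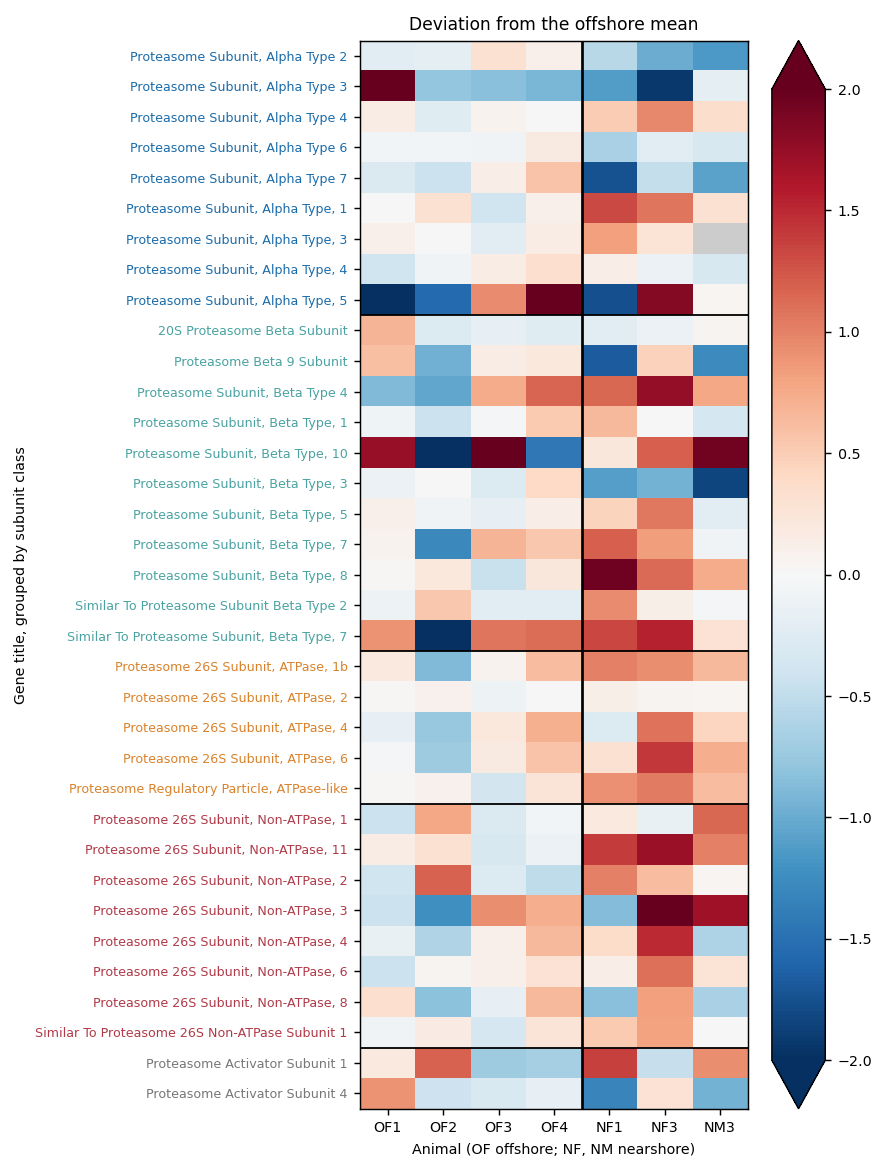
Rows are the 35 proteasome titles in order of subunit class and columns are the 7 animals. Colour gives the log2 deviation from the offshore mean, computed for an offshore animal from the other 3, and grey marks the missing value of Alpha Type, 3 in NM3. NF3 lies above the offshore mean in 12 of the 13 regulatory rows, and OF2 lies above the mean of the other offshore animals in only 11 of the 35 rows.

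The animals of a site differed among themselves, and the same animals tended to stand at the ends across subunits. This was noticed after the values were seen and is given as counts. Nearshore, NF3 was the highest of the 7 animals in 14 of 35 titles, NF1 in 10 and NM3 in 2. Over all 4328 titles these counts were 723 for NF3, 745 for NF1 and 705 for NM3. NF3 exceeded NM3 in 29 of the 34 titles with both values (85.3%), against 55.2% of all titles. Relative to the offshore mean, the median deviation of the 35 titles was 0.82 in NF3, 0.30 in NF1 and 0.04 in NM3. Over all titles the 3 medians ran from -0.07 to -0.03. The small median of NM3 came from titles on both sides. Of its 34 proteasome values, 12 lay above the offshore range and 11 below it. Over all titles, 1199 of its 4283 values lay above and 1422 below.

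Offshore, OF4 was the highest of the 4 animals in 19 titles (54.3%) and OF2 the lowest in 16 (45.7%). Over all titles the shares were 28.8% for OF4 and 25.6% for OF2. OF4 exceeded OF2 in 27 of 35 titles (77.1%), against 49.5% of all titles. The median deviation from the other offshore animals was 0.23 in OF4, 0.00 in OF1, -0.07 in OF3 and -0.24 in OF2. That of OF4 was thus close to that of NF1, and the median of NM3 lay inside the range of the offshore medians. Without NF3 the median log2 fold change of the 35 titles was 0.26, without NM3 0.54, and without any other animal between 0.39 and 0.51.

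**Figure D4:**
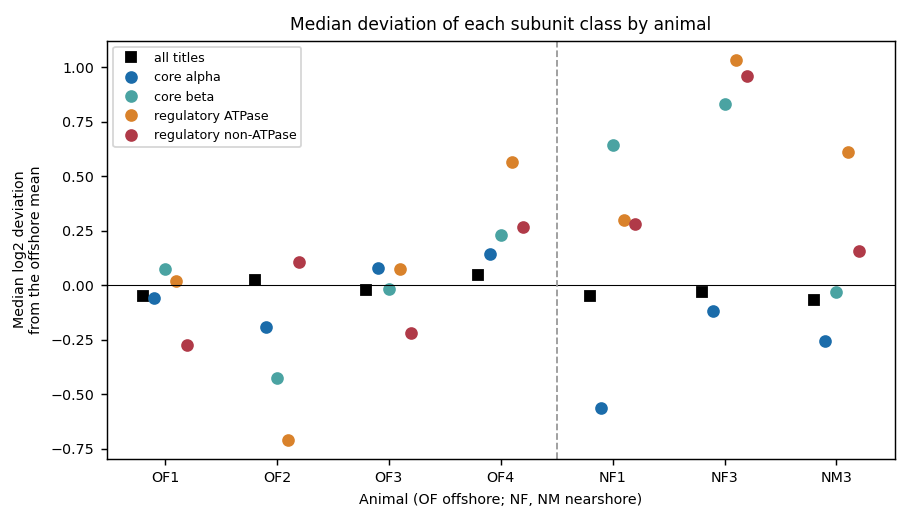
Points are the median log2 deviation from the offshore mean over the titles of each subunit class, by animal, with all 4328 titles as black squares. In NF3 the ATPase, non-ATPase and beta medians were 1.03, 0.96 and 0.83 while the alpha median was -0.12. In OF2 the ATPase median was -0.71, the lowest of the offshore points.

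By class, the median deviation of the ATPases was 1.03 in NF3, 0.61 in NM3 and 0.30 in NF1, and ran from -0.71 in OF2 to 0.56 in OF4 offshore. That of the non-ATPase subunits was 0.96 in NF3, 0.28 in NF1 and 0.16 in NM3, and ran from -0.28 to 0.27 offshore. In the beta subunits NF3 and NF1 were at 0.83 and 0.64 and NM3 at -0.03, within the offshore range of -0.43 to 0.23. The alpha subunits had negative medians in all nearshore animals, from -0.56 in NF1 to -0.12 in NF3, against -0.19 to 0.14 offshore. The median log2 fold change of the alpha titles, -0.10, ran from -0.48 without NF3 to 0.0043 without NM3, and was -0.40 and -0.35 without OF1 and OF2. The differences between classes were not tested.

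For 4 subunits a pair of titles can be set side by side. The titles for Non-ATPase 1 had differences of 0.40 (SE 0.39) and 0.44 (SE 0.27). Those for Beta Type 7 had differences of 0.65 (SE 0.46) and 1.06 (SE 0.82), and in both OF2 was the lowest animal at 6.97 in the first and 8.66 in the second. The other 2 pairs disagreed in sign. For Alpha Type 4 the differences were 0.61 (SE 0.24) and -0.10 (SE 0.25). For Alpha Type 3 one title, at 3.65 ± 1.26 offshore, differed by -1.08 (SE 0.73). The other, at 13.64 ± 0.13, differed by 0.54 (SE 0.29), where NM3 had no value and the nearshore n was 2. Whether the titles of a pair stand for 1 conch gene is not known. With each pair averaged, the median over the 31 items was 0.42 and the same number of titles, 1 rising and 1 falling, passed.

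Other parts of the ubiquitin pathway were counted by name, and title patterns can catch strays. Of 18 titles for ubiquitin activation and conjugation, 1 rose and 0 fell (median -0.13). The rise was Ariadne Ubiquitin-conjugating Enzyme E2 Binding Protein Homolog 1, a ligase that works with conjugating enzymes, by 1.34 (SE 0.22, limma adjusted p = 0.0176). Of 30 ubiquitin ligase titles, 3 rose and 1 fell (median -0.39). F-box Protein 32 and F-box Protein 25, which bring substrates to ligases, rose by 4.18 and 3.82, Anaphase Promoting Complex Subunit 13 rose by 1.46, and Cullin 3, a ligase scaffold, fell by 1.34. Of 8 deubiquitinase titles none passed (median -0.25). Ubiquitin Specific Peptidase 14 and Ubiquitin Carboxyl-terminal Esterase L5, which work on the proteasome itself in vertebrates, had differences of 0.30 (SE 0.27) and -0.48 (SE 0.32). Valosin Containing Protein, the ATPase that pulls tagged proteins out of complexes and the 1 title of the shuttle and extraction list, differed by 0.54 (SE 0.40). Without NM3 the medians for conjugation and deubiquitinases turned to 0.10 and 0.02. The contrast of these lists with the proteasome titles was not tested.

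Complexes related in build or function were set beside the members. The lid of the regulatory particle is related to the COP9 signalosome and to the translation factor eIF3. Of 4 COP9 signalosome titles none passed (median -0.12), and of 12 eIF3 titles 1 rose and 1 fell (median -0.01). With 1 animal left out these medians ran from -0.20 to 0.071 and from -0.28 to 0.13, so neither has a settled sign. Of 7 titles for the CCT chaperonin, a ring that folds actin and tubulin, 6 lay above 0 and 1 rose, Chaperonin Containing TCP1, Subunit 2, by 1.07 (SE 0.22), with a median of 0.57. Of 44 heat shock and DnaJ titles 3 fell and 0 rose (median -0.02), and of 6 lysosomal protease titles none passed (median 1.22, with a median SE of 1.42). That median ran from 0.0017 without NM3 to 2.03 without OF1, and was 0.37 without OF2. Of 81 ribosomal protein titles, 4 of which carry the 30S or 50S names of bacterial or organelle ribosomes, 7 fell and 0 rose (median -0.28). The pattern for other proteasome names matched 0 titles.

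Titles of other tissues that a gonad sample can hold moved with the site in part. Of 16 titles matching muscle names 3 rose and 0 fell. One of the risen titles, Myosin, Heavy Polypeptide 9, Non-muscle, names itself non-muscle, and the list also holds Myosin VIa and Myosin IXb, which many cell types make, so it is not a pure muscle list. Its mean level over the 15 measured on all arrays was 4.69 to 5.30 offshore and 5.42 to 5.77 nearshore. Of 15 extracellular matrix titles 3 rose and 0 fell, with 11 above 0 and 4 below 0. Their mean level was 5.83 to 6.44 offshore and 6.60 to 6.92 nearshore. The pattern also caught enzymes that act on procollagen and collagen-binding titles, so this is not a pure matrix list. The highest mean of both lists was in NF3, which was the highest nearshore animal in 19 proteasome titles. Offshore, OF4 had the lowest mean of both lists and was the highest offshore animal in 19 proteasome titles. For the ovary and oocyte titles, by contrast, OF4 had the highest offshore mean, and NF3 again had the highest nearshore mean. OF2 had the lowest offshore mean of that list and was the lowest offshore animal in 16 proteasome titles. The lowest nearshore mean of that list belonged to NF1, whereas NM3 was the lowest nearshore animal in 19 proteasome titles. The mean level over the 14 ovary and oocyte titles was 7.56 to 7.99 offshore, and 6.52 in NF1, 6.78 in NM3 and 8.00 in NF3. Of these 14 titles 0 rose and 2 fell, with 6 above 0 and 8 below 0. The 2 that fell were both caught by the pattern for cell division cycle names. Cell Division Cycle 25C, a phosphatase that starts division, fell by 2.09, and its target kinase Cell Division Cycle 2 fell by 4.29. The lists for digestive gland (28 titles, 2 rose and 2 fell) and haemocyte (11 titles, 1 rose and 1 fell) overlapped between the sites in mean level. The digestive gland pattern also caught phospholipases, of which Phospholipase C, Beta 4 rose and Phospholipase D2 fell. The haemocyte pattern also caught Plectin titles, so neither is a pure list of its tissue. The nerve titles (2 titles, 1 rose) had a mean level of 2.45 to 3.26 offshore and 3.30 to 4.13 nearshore. Synaptotagmin XV rose by 1.33 (SE 0.29), while Similar To Synaptotagmin-1 differed by -0.14 (SE 0.40). The 2 titles thus give no single direction. Since the table has no detection calls, no marker can be called absent. The part of tissue composition in the proteasome differences was not tested.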

How the data were processed

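Per the labels, ovary total RNA per animal was labelled with Cy3, and per the submitters' processing notes Agilent Feature Extraction was used. The authors deposited 1 log2 value per gene title and array. The log base was read from the range of the values, and how signals were normalized, corrected for background and condensed to titles is not stated in the labels or the header. From these values each of the 4328 titles was fitted in limma 3.58.1 under R 4.3.3 (lmFit and eBayes, 4 offshore against 3 nearshore arrays, two-sided, Benjamini-Hochberg over all titles, threshold 0.05), and a title is said to have risen or fallen only past that threshold. SE is the moderated standard error. Missing values were left out per title: 53 titles lack 1 or more values, and NM3 lacks 45. No filter on dim titles was applied. The number of arrays limits the precision.

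Members and lists were chosen with earlier results of these data known. All members may be named, and of each list up to 4 titles with the smallest p. Ubiquitin Specific Peptidase 14 and Vitellogenin 2 fall outside this rule, as do Myosin VIa, Myosin IXb and the Plectin titles. So do the title Bol, Boule-like and the zona pellucida-like, procollagen enzyme and collagen-binding titles. All of them were chosen after their values were seen. Per-title fits were tested on 10 simulated tables. Alternatives were quantile, median and cyclic loess normalization, leaving out the dimmest 25% of titles, array weights, other variance models, other thresholds, averaged subunits and each animal left out.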

Additional observations from a re-analysis of the deposited data

Results flagged for a closer look

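In 6 of the 35 proteasome titles 1 offshore animal stood apart from the other 3 by Dixon's criterion at the 95% level, which chance gives in about 1 in 20 groups. Over all titles with 4 offshore values, 5.97% did. In Proteasome Subunit, Alpha Type 3, OF1 was at 5.54 and the others at 2.96 to 3.07. In 20S Proteasome Beta Subunit, OF1 was at 1.60 and the others at 0.88 to 0.97. In Similar To Proteasome Subunit, Beta Type, 7, OF2 was at 8.66 and the others at 11.63 to 11.80, and without OF2 the site difference was 0.29 in place of 1.06. OF2 was the highest in Similar To Proteasome Subunit Beta Type 2, at 14.53 against 13.95 to 14.05, and in Proteasome 26S Subunit, Non-ATPase, 2, at 9.75 against 8.47 to 8.65. In Proteasome Subunit, Alpha Type 6, OF4 was at 12.67 and the others at 12.48 to 12.50. None of these 6 titles passed the site comparison.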

How the results depend on the processing

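Over 14 alternatives for each proteasome title, 454 values kept direction and side of the threshold, 14 lost the call, 10 gained it and 10 reversed. The filter left out 2 dim titles, which have no value there. The whole-table counts (changed, rose, fell) were 143, 61 and 82 with unmoderated variance, 659, 284 and 375 at an adjusted p under 0.1, and 0, 0 and 0 under 0.01. With 1 animal left out they ran from 34 to 302, 14 to 147 and 20 to 155, lowest without OF4 and highest without NM3. Among proteasome titles, 4 passed after cyclic loess (3 rose), 5 with the robust prior (3 rose, 2 fell), 5 at 0.1 (3 rose, 2 fell), 1 with unmoderated variance (0 fell) and 0 at 0.01 (0 rose, 0 fell; 10 at an unadjusted p under 0.05). With quantile normalization, the filter or array weights 2 rose. With 1 animal left out, 0 to 3 passed and 0 to 3 rose, 3 of them without NM3, and 0 fell in all 7 fits. The alpha median ran from -0.48 to 0.0043 the beta median from 0.33 to 0.71, the ATPase median from 0.51 to 0.92 and the non-ATPase median from 0.34 to 0.66. None of the titles that reversed was called. With 1 animal left out, 20S Proteasome Beta Subunit ran from -0.18 to 0.070, Non-ATPase 4 from -0.12 to 0.93, Non-ATPase 8 from -0.75 to 0.082, Alpha Type, 4 from -0.22 to 0.0043, Alpha Type, 5 from -0.86 to 0.94 and Beta Type, 1 from -0.18 to 0.32. Alpha Type, 5 was also -0.22 with array weights. The causes were not tested. No paired analysis was possible because the animal codes do not pair offshore with nearshore animals.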
